A study of Mus musculus with 6 samples.

Results

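The mitochondrial chromosome of the mouse carries 37 genes, and all 37 are listed in the count tables of this series under symbols that begin with mt-. They are 13 mRNAs, 2 rRNAs and 22 tRNAs, out of 55401 genes in all, and they were taken by symbol and chromosome, without use of their values. Counts came from poly(A)-selected RNA of RAW264.7 cells, a mouse macrophage line raised from the ascites of a tumour that Abelson murine leukemia virus had induced. The sample titles give 3 Nop16 siRNA libraries, with the genotype entered as Nop16 KD, and 3 control siRNA libraries, with the genotype entered as WT. The treatment entry is "no" in all 6, and a single protocol text names siRNA against Nop16, used at 20 nM over 3 days. No source used here says how the control cells were transfected, so transfection itself and loss of Nop16 cannot be told apart. The labels do not say that the libraries came from separate cultures, and p-values therefore measure only the spread between these libraries, which may be technical.

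Mitochondrial DNA is transcribed from both strands into long precursors that are cut into single RNAs, largely by removal of the tRNAs that lie between the mRNAs and rRNAs. The heavy-strand precursor yields the rRNAs, most tRNAs and all mRNAs except mt-Nd6, which comes from the light-strand precursor. The mRNAs encode core subunits of respiratory complexes I, III and IV and of the ATP synthase (complex V), and their levels are known to depend on poly(A) addition and on binding by the LRPPRC and SLIRP proteins as well as on transcription. Macrophages are known to shift between respiration and glycolysis when they are activated. Since the RNA came from bulk cultures, fewer cells of a kind and less RNA per cell cannot be told apart in any value below.

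The genes are packed closely, which bears on how their fragments were counted. Of 36 neighbouring gene pairs along the chromosome, 21 either abut without a gap or overlap each other, and the widest gap is 32 bases. The last 14 bases of mt-Nd5 and mt-Nd6 lie opposite each other. The ends of these genes are shown because the mRNAs changed in opposite directions, with the shared bases in capitals. Each is read 5′ to 3′ on its own strand of GRCm38, at chrMT:13536-13565 on the plus strand and chrMT:13552-13581 on the minus strand.
mt-Nd5: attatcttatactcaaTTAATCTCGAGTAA
mt-Nd6: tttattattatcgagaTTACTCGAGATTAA

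Of the 13 mRNAs, 10 end in a complete stop codon in the DNA. In the other 3 the gene ends in a lone T, in capitals here, and the stop codon TAA is completed only by the A tail. The tail is also the feature by which the libraries captured RNA. The ends stand at chrMT:9361-9390, chrMT:11515-11544 and chrMT:15259-15288 on the plus strand.
mt-Co3: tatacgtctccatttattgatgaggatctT
mt-Nd4: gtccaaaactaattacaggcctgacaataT
mt-Cytb: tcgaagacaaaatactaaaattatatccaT

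Stretches of mitochondrial DNA also sit in the nuclear genome, and the count tables hold gene models for them. On chromosome 1 of GRCm38, 7 such models lie side by side between positions 24611535 and 24616197 on the minus strand, and 5 of them match their mitochondrial gene without a mismatch. The other 2 carry a single base difference each, in capitals below, which is all that separates them from the mitochondrial RNA over the aligned bases. Counted from the first base of the mitochondrial gene, the differences are A1066T for mt-Co1 against Gm29216 and T3C for mt-Nd3 against Gm28438. The mitochondrial windows are chrMT:6390-6419 and chrMT:9459-9488 on the plus strand, and the nuclear windows are chr1:24616159-24616188 and chr1:24613090-24613119 on the minus strand.
mt-Co1: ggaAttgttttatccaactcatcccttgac
Gm29216: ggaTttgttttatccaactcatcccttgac
mt-Nd3: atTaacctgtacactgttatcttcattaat
Gm28438: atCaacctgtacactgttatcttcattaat

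Library totals were 15601477, 17484126 and 18635089 counts in the Nop16 siRNA libraries, and 21799500, 23061922 and 19778237 counts in the control libraries. Nop16, the targeted gene, had 61, 72 and 84 counts in the Nop16 siRNA libraries, against 388, 437 and 402 counts in the controls, a log2 fold change of -2.16 (SE 0.12, edgeR adjusted p = 2.94e-23). All 10 macrophage markers were detected, and their summed level was 8092 to 8513 CPM after Nop16 siRNA and 5063 to 5342 CPM in controls. The sum is weighted to the most abundant markers. At an edgeR adjusted p below 0.05, 6 markers were higher and 1 lower, against 23% higher and 22.4% lower over all genes tested. CPM are counts scaled to library size with TMM factors. Markers of other lineages were lower in sum. Cd3e, S100a9, Dcn and Krt8 had no count in any library, but other members of their lists did. Neutrophil markers summed to 14.5 to 16.8 CPM after Nop16 siRNA and 11.7 to 16.3 CPM in controls. T and NK cell markers summed to 4.45 to 5.10 and 4.56 to 6.02 CPM, and fibroblast markers to 1.21 to 1.42 and 1.23 to 1.63 CPM. Epithelial markers reached at most 0.054 and 0.05 CPM. The B lymphoid markers Ighm and Blnk were present, with a summed level for that list of 46.1 to 51.3 CPM after Nop16 siRNA and 51.1 to 56.9 CPM in controls. The part of these marker shifts in the results below was not tested.

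Mitochondrially encoded genes as a whole shifted little, and the 13 mRNAs did not move together. Of the 37 genes, 22 passed the filter on low counts, namely the 13 mRNAs, both rRNAs and 7 tRNAs. Of these 22, 3 were higher and 9 lower after Nop16 siRNA at an edgeR adjusted p below 0.05, and 10 did not pass. Over all 14269 genes tested, 45.4% passed, 23% as higher and 22.4% as lower, so a changed gene was common in this comparison. The median log2 fold change of the 22 genes was -0.15, against -0.00 over all genes tested. The 3 Nop16 siRNA libraries lay above all 3 controls for 3 of the 22 genes and below all 3 for 10, and such a separation was found for 52.5% of all genes tested, 26.3% above and 26.2% below. The changes were modest: among mRNAs the folds ran from 0.735 for mt-Nd6 to 1.23 for mt-Nd5, and the median absolute log2 fold change was 0.28 among the 12 changed genes and 0.34 among all changed genes.

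**Figure D1:**
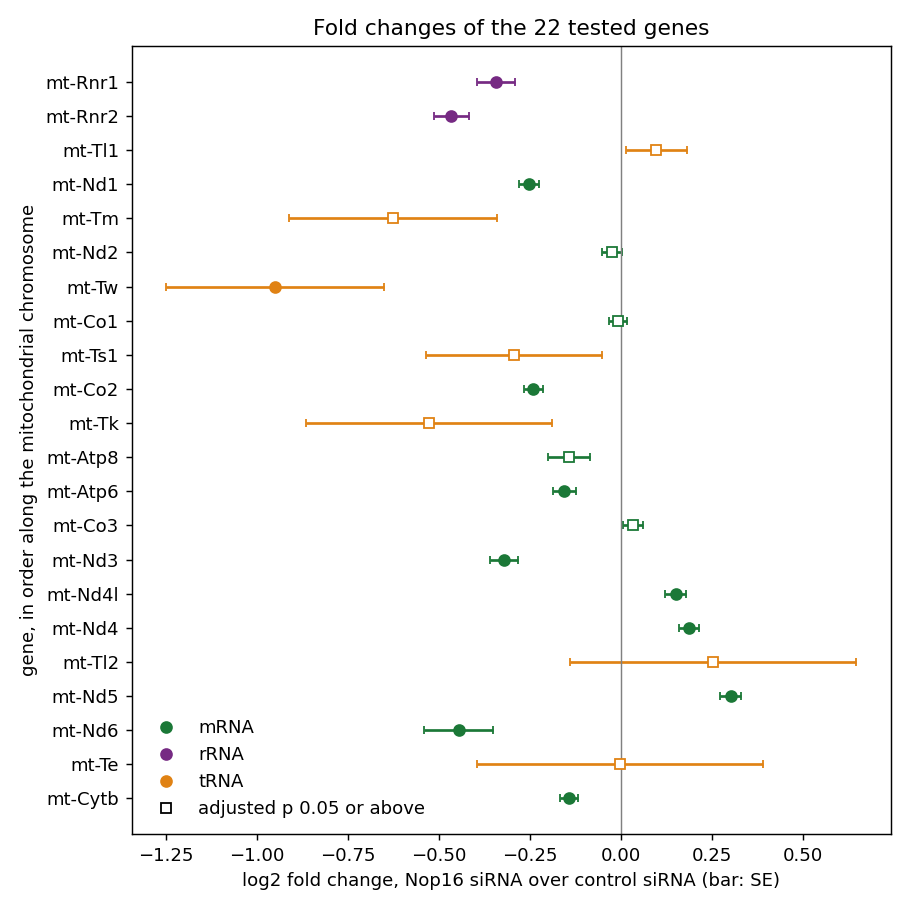
Log2 fold change of each of the 22 tested genes, Nop16 siRNA over control siRNA, with its SE as a bar, in order along the mitochondrial chromosome. Filled circles are the 12 genes that passed at an adjusted p below 0.05. mt-Nd5, mt-Nd4 and mt-Nd4l lie to the right of 0, and mt-Nd6, both rRNAs and mt-Tw lie farthest to the left among the filled points.

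The share of all counts that fell on the 37 genes was 4.51, 4.73 and 4.74% in the Nop16 siRNA libraries, and 4.99, 4.92 and 4.80% in the controls. Every Nop16 siRNA library was below every control library. The means were 4.66% ± 0.131 and 4.90% ± 0.094 (SD, n = 3 each), a difference of -0.244 percentage points with an exact two-sided permutation p of 0.1, the smallest that 3 against 3 libraries can give. Nearly all of this share was mRNA, at 4.49 to 4.72% after Nop16 siRNA and 4.78 to 4.97% in controls. The rRNAs took 0.0115 to 0.0128% of counts after Nop16 siRNA and 0.0157 to 0.0170% in controls, in libraries selected for poly(A) RNA. Left out of the total, the nuclear copies changed the difference to -0.255 percentage points.

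Levels per length spanned a wide range within the single chromosome. In CPM per kilobase of gene, mt-Atp8 was at 11126 ± 748 after Nop16 siRNA and 12269 ± 574 in controls, and mt-Nd6 was at 25.8 ± 2.85 and 35.2 ± 2.07 (SD, n = 3 each). The order of control means was mt-Atp8, mt-Co1, mt-Atp6, mt-Co2, mt-Nd4l, mt-Cytb, mt-Nd4, mt-Co3, mt-Nd1, mt-Nd2, mt-Nd5, mt-Nd3 and mt-Nd6. Under Nop16 siRNA the only mRNAs to change places were mt-Nd4 and mt-Cytb, with mt-Nd4 at 3476 ± 137 and mt-Cytb at 3141 ± 92.6 CPM per kilobase, against 3053 ± 77.2 for mt-Nd4 and 3467 ± 41.2 for mt-Cytb in controls. The level of mt-Atp8 is uncertain, since its last 43 bases are also the first 43 of mt-Atp6 and a fragment over both was counted for both.

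**Figure D2:**
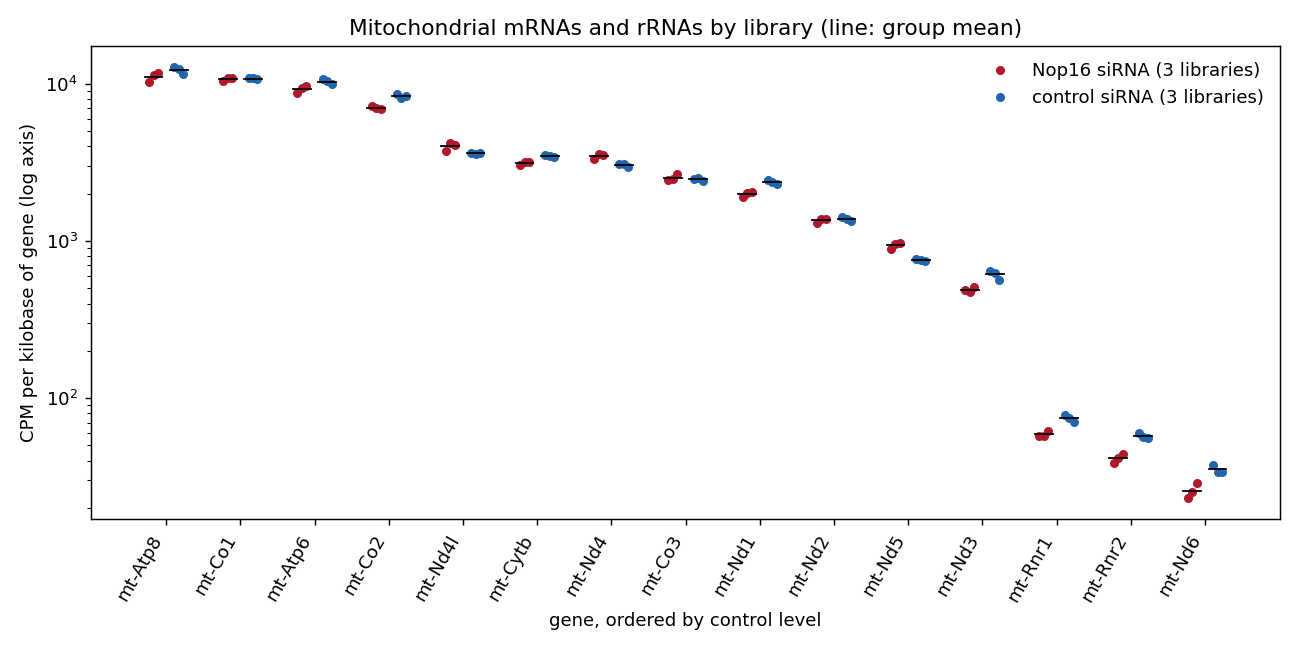
Level of the 13 mRNAs and 2 rRNAs in every library, in CPM per kilobase of gene on a log axis, with Nop16 siRNA libraries left of control libraries for each gene and the group mean as a line. The groups are apart for mt-Nd5, mt-Nd4 and mt-Nd4l (Nop16 siRNA above) and for mt-Co2, mt-Nd1, mt-Nd3, mt-Nd6 and both rRNAs (Nop16 siRNA below), among others, and they overlap for mt-Co1, mt-Nd2, mt-Co3 and mt-Atp8.

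Complex I, the entry point for electrons from NADH, has 7 mitochondrially encoded subunits, all in its membrane arm, and they split: 3 mRNAs were higher, 3 were lower and 1 did not pass. The largest rise was that of mt-Nd5, which encodes a proton-pumping subunit at the far end of that arm. mt-Nd5 stood at 1625, 1742 and 1771 CPM after Nop16 siRNA, against 1410.5, 1391 and 1367 CPM in controls. All 3 Nop16 siRNA libraries were above all controls, at a log2 fold change of 0.30 (SE 0.0281, edgeR adjusted p = 7.18e-14). mt-Nd4, a neighbouring pump subunit, stood at 4577, 4941 and 4852 CPM after Nop16 siRNA, against 4274, 4263 and 4084 CPM in controls (log2 fold change 0.19, SE 0.0269, edgeR adjusted p = 3.75e-08). mt-Nd4l, which shares a transcript with mt-Nd4 and overlaps it by 7 bases, stood at 1119, 1248 and 1208 CPM after Nop16 siRNA, against 1081, 1062 and 1078 CPM in controls (log2 fold change 0.15, SE 0.0295, edgeR adjusted p = 2.82e-05). For both genes the groups did not overlap, and for mt-Nd4l the lowest Nop16 siRNA library lay close to the highest control library.

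The 3 complex I mRNAs that were lower lie in different places on the chromosome. mt-Nd6, the only mRNA of the light-strand precursor, was the least abundant in these poly(A)-selected libraries, which hold only captured RNA. It stood at 12.1, 13.1 and 14.99 CPM after Nop16 siRNA, against 19.5, 17.7 and 17.6 CPM in controls. This was the largest change among the mRNAs (log2 fold change -0.45, SE 0.0949, edgeR adjusted p = 7.95e-05). Its neighbour is the mRNA with the largest rise, as mt-Nd5 ends on the opposite strand at the 14 bases printed above. mt-Nd3, a small subunit near the junction of the 2 arms of the complex, stood at 169, 166 and 177 CPM after Nop16 siRNA, against 225, 218 and 197 CPM in controls (log2 fold change -0.32, SE 0.0391, edgeR adjusted p = 5.37e-09). mt-Nd1, which helps to form the quinone-binding site, stood at 1828, 1939 and 1955 CPM after Nop16 siRNA, against 2353, 2264 and 2195 CPM in controls (log2 fold change -0.25, SE 0.028, edgeR adjusted p = 3.22e-11). In all 3 genes each Nop16 siRNA library was below each control. mt-Nd2, another pump subunit, did not pass, at 1359.8, 1438 and 1444 CPM after Nop16 siRNA and 1485, 1436 and 1395 CPM in controls (log2 fold change -0.02, 95% interval -0.08 to 0.03, edgeR adjusted p = 0.504).

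mt-Cytb, the cytochrome b subunit and the only mitochondrially encoded part of complex III, was lower. It stood at 3471, 3661 and 3649 CPM after Nop16 siRNA, against 4014, 3963 and 3920.1 CPM in controls. The groups did not overlap (log2 fold change -0.14, SE 0.0259, edgeR adjusted p = 5.68e-06).

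Of the 3 catalytic core subunits of complex IV, cytochrome c oxidase, 1 was lower. mt-Co2, which receives electrons from cytochrome c, stood at 4975, 4818 and 4714 CPM after Nop16 siRNA, against 5877, 5574 and 5691 CPM in controls. All Nop16 siRNA libraries were below all controls, at a log2 fold change of -0.24 (SE 0.0261, edgeR adjusted p = 8.71e-12). mt-Co1, which holds the site of oxygen reduction, stood at 16156, 16799.7 and 16934 CPM after Nop16 siRNA and at 16816, 16745 and 16562 CPM in controls (log2 fold change -0.01, 95% interval -0.06 to 0.04, edgeR adjusted p = 0.853). mt-Co3, the remaining core subunit, stood at 1922, 1956 and 2080.3 CPM after Nop16 siRNA and at 1939.7, 1989 and 1895 CPM in controls (log2 fold change 0.03, 95% interval -0.02 to 0.09, edgeR adjusted p = 0.35). For mt-Co1 and mt-Co3 the groups overlapped.

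In complex V, mt-Atp6 forms part of the proton channel of the ATP synthase and mt-Atp8 supports its assembly, and both are read from a single bicistronic mRNA. mt-Atp6 was lower, at 5975, 6409.7 and 6604 CPM after Nop16 siRNA, against 7282, 7104 and 6758 CPM in controls (log2 fold change -0.16, SE 0.0317, edgeR adjusted p = 0.000225). mt-Atp8 stood at 2096, 2332 and 2382 CPM after Nop16 siRNA and at 2597, 2540.0 and 2372 CPM in controls. Its log2 fold change of -0.14 was close to that of mt-Atp6, but the groups overlapped and it did not pass (SE 0.0577, edgeR adjusted p = 0.0965). It did pass in limma-voom (adjusted p = 0.000362), with no filter on low counts (2.07e-06), with robust dispersion off (0.00164), and without Nop16 siRNA replicate 1 (0.0165), Nop16 siRNA replicate 3 (0.00529) or control replicate 3 (0.00123), each in edgeR unless named otherwise.

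Within a group, the mRNAs of a library tended to be high or low together. Nop16 siRNA replicate 1 was the lowest of its group for 11 of the 13 mRNAs, and control replicate 3 was the lowest of its group for 11. Shares of the summed mRNA counts, which take out the level of the whole set, were therefore set beside the CPM. On this scale the groups did not overlap for 12 of the 13 mRNAs, with 5 higher and 7 lower after Nop16 siRNA and mt-Nd2 overlapping. The exact two-sided permutation p was 0.1 for each of the 12. In CPM 52.5% of all genes tested were separated in this way, and no such share over all genes exists for this scale. mt-Nd4 held 10.1, 10.4 and 10.2% of the mRNA counts after Nop16 siRNA, against 8.66, 8.78 and 8.59% in controls. mt-Nd5 held 3.59, 3.67 and 3.71% after Nop16 siRNA, against 2.86, 2.86 and 2.88% in controls. mt-Co1, whose CPM overlapped, held 35.7, 35.4 and 35.4% after Nop16 siRNA, against 34.1, 34.5 and 34.8% in controls. mt-Co2 held 10.99, 10.2 and 9.86% after Nop16 siRNA, against 11.9, 11.5 and 11.97% in controls. Since shares sum to a whole, a rise of some forces a fall of others.

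The rRNAs of the mitochondrial ribosome were both lower. In log2 fold change mt-Rnr2 moved more than any mRNA, and mt-Rnr1 more than any mRNA except mt-Nd6. mt-Rnr1, the small-subunit rRNA, stood at 54.6, 54.6 and 59.5 CPM after Nop16 siRNA, against 74.9, 71.5 and 67.5 CPM in controls (log2 fold change -0.34, SE 0.052, edgeR adjusted p = 1.2e-07). mt-Rnr2, the large-subunit rRNA, stood at 61.4, 66.1 and 69.7 CPM after Nop16 siRNA, against 94.5, 90.04 and 88.2 CPM in controls (log2 fold change -0.47, SE 0.0483, edgeR adjusted p = 2.12e-12). In both, each Nop16 siRNA library was below each control. The log2 ratio of rRNA to mRNA counts, which does not depend on scaling between libraries, was -8.61, -8.62 and -8.53 after Nop16 siRNA and -8.19, -8.23 and -8.25 in controls, a difference of -0.36 (exact two-sided permutation p = 0.1). Poly(A)-selected libraries hold only the part of the rRNA that was captured, and total rRNA was not measured. The log2 ratio of mt-Nd6 to the 12 heavy-strand mRNAs was -11.87, -11.83 and -11.64 after Nop16 siRNA and -11.30, -11.42 and -11.40 in controls, a difference of -0.40 without overlap (exact two-sided permutation p = 0.1). It too covers captured RNA only and is no measure of transcription from either strand.

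The tRNA genes gave few counts. Of 22, 15 stayed below the filter, with at most 15 counts in any library, 8 of them at 0 in at least 1 library, and a sum of 114 counts over the Nop16 siRNA libraries and 193 over the deeper controls. mt-Tl1, a leucine tRNA gene between mt-Rnr2 and mt-Nd1 with no gap on either side, held 58.6 to 73.8% of the tRNA counts. It stood at 20.5, 24.8 and 23.4 CPM after Nop16 siRNA and at 22.7, 20.5 and 21.1 CPM in controls, and did not pass (log2 fold change 0.10, SE 0.0837, edgeR adjusted p = 0.361). The next most abundant, all under 5 CPM, were mt-Ts1 (log2 fold change -0.29, edgeR adjusted p = 0.344), mt-Tm (-0.63, 0.0677) and mt-Tw. mt-Tw, the tryptophan tRNA gene, was the only tRNA gene to pass, with 15, 16 and 28 counts after Nop16 siRNA, against 57, 40 and 47 counts in controls (log2 fold change -0.95, SE 0.299, edgeR adjusted p = 0.0069). mt-Tm passed only without Nop16 siRNA replicate 3 (edgeR adjusted p = 0.0475). mt-Tk, mt-Tl2 and mt-Te did not pass, at log2 fold changes of -0.53, 0.25 and -0.00. The log2 ratio of tRNA to mRNA counts overlapped, at -10.56, -10.46 and -10.42 after Nop16 siRNA and -10.38, -10.58 and -10.37 in controls (difference -0.04, exact two-sided permutation p = 0.6). A fragment needs only 10 bases within a gene to be counted for it, so counts of a tRNA gene can come from precursors or from neighbouring mRNAs and are no measure of the mature tRNA.

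Across the mRNAs, longer RNAs had the more positive changes. With mt-Atp8 and mt-Atp6, and mt-Nd4l and mt-Nd4, each joined into the single RNA they share, 11 mRNA units remained. The log2 ratio of mean CPM ran from -0.32 for mt-Nd3 (348 bases) and -0.45 for mt-Nd6 (519 bases) to 0.18 for mt-Nd4l with mt-Nd4 (1668 bases) and 0.30 for mt-Nd5 (1824 bases). Spearman's rho with the span was 0.81 and Pearson's r with its log2 was 0.83 over the 11 units, which share libraries, precursors and base composition and are not independent. With the start position on the chromosome rho was 0.08. Over all 14269 genes tested, rho between the log2 fold change and the exonic length was 0.01, and that with GC content was 0.05 over the 14244 genes with a value. All genes tested had a median length of 3760 bases and the 13 mRNAs one of 784. The all-gene values therefore do not describe trends at the short, GC-poor end where the mRNAs lie. The relation with span was not recomputed with such trends removed. mt-Co1 (1545 bases, -0.01) and mt-Co3 (784 bases, 0.03) show that span did not order every unit.

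**Figure D3:**
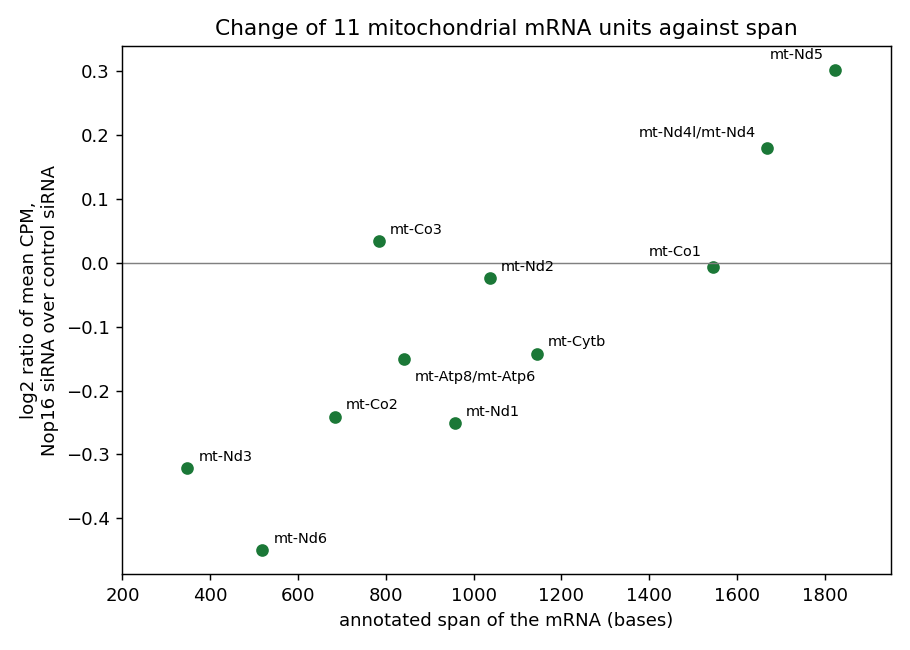
Log2 ratio of mean CPM, Nop16 siRNA over control siRNA, against the annotated span in bases for 11 mRNA units, where genes that share an RNA are joined. mt-Nd3 and mt-Nd6 lie at the lower left and mt-Nd5 at the upper right, with mt-Co3 above and mt-Cytb below their neighbours in span.

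The direction of several members depended on whether trends with length and GC content across all genes were removed in each library before the test. These genes are unlike most others, with a GC content of 31.9 to 41.1% and a median of 37.1% for the mRNAs, against a median of 50% for all genes tested, of which 988 (6.94%) lay at or below the highest mRNA. The trends at that end therefore rest on few genes. With the trends removed, 6 mRNAs were higher, 3 lower and 4 did not pass. mt-Nd5 (log2 fold change 0.37), mt-Nd4 (0.31) and mt-Nd4l (0.27) stayed higher, and mt-Co3 (0.17), mt-Nd2 (0.13) and mt-Co1 (0.06) were then also called higher. mt-Nd6 (-0.24), mt-Nd1 (-0.12) and mt-Co2 (-0.10) stayed lower, as did mt-Rnr2 (-0.36) and mt-Rnr1 (-0.19). mt-Nd3 (-0.10, edgeR adjusted p = 0.163), mt-Cytb (-0.04, 0.144) and mt-Atp6 (0.02, 0.657) lost their call, and mt-Atp8 (0.07, 0.4) changed sign without passing. Tested against a minimum fold of 1.2, only mt-Rnr2, mt-Nd6 and mt-Tw passed, all 3 of them lower.

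**Figure D4:**
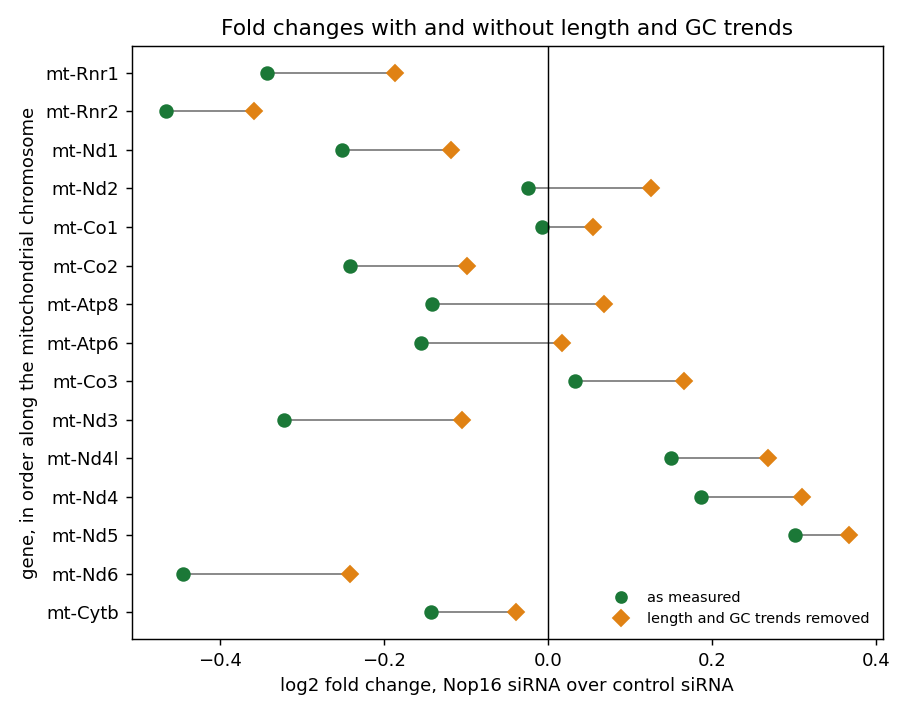
Log2 fold change, Nop16 siRNA over control siRNA, of the 13 mRNAs and 2 rRNAs as measured (circles) and with length and GC trends removed (diamonds), in order along the chromosome. Every diamond lies to the right of its circle, and mt-Nd2, mt-Co1, mt-Atp8 and mt-Atp6 cross 0.

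The nuclear copies carried counts that tracked the mitochondrial genes. The 7 chromosome 1 models held 2.12 to 2.21% of all counts in the Nop16 siRNA libraries and 2.26 to 2.34% in controls. For the 5 of them that cover nearly a whole mitochondrial gene, the counts of the copy were 0.977 to 1.01 times those of the gene in every library, also for Gm28438, whose T3C lies in the start codon of mt-Nd3. Multi-mapped fragments were counted at each place they matched, so these values do not tell how much RNA, if any, came from chromosome 1. The calls of these 5 were those of their genes: Gm10925, the copy of mt-Atp6, had a log2 fold change of -0.15, and Gm28661, the copy of mt-Co2, one of -0.25. The 4 models on chromosomes 2 and 13, which match at 95.2 to 97.6% identity, had mean counts of 121 or fewer.

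The 2 partial copies served as windows on where along an mRNA the fragments lay. Gm29216 matches the last 483 bases of mt-Co1, 31.3% of its length, and its counts equalled 28.4, 28.5 and 28.8% of those of mt-Co1 after Nop16 siRNA, against 26.6, 26.9 and 26.9% in controls. Gm28439 matches the first 876 bases of mt-Nd4, 63.6% of its length, and its counts equalled 56.8, 57.4 and 57.1% of those of mt-Nd4 after Nop16 siRNA, against 57.7, 57.5 and 58.9% in controls. Neither pair of groups overlapped (exact two-sided permutation p = 0.1 each). For mt-Co1 the difference of the means was 1.75 percentage points, and it was 1.64 to 1.81 without any 1 library. For mt-Nd4 it was -0.914, and -1.19 to -0.499 without any 1 library, and the nearest libraries stood at 57.43% after Nop16 siRNA and 57.48% in controls. Copies of nearly whole genes, which leave little room for a shift in position, also strayed within a group. Gm28661 stood at 99.7, 99.7 and 97.7% of mt-Co2 in the Nop16 siRNA libraries. That spread is wider than the difference for mt-Nd4 and than that for mt-Co1, but it rests on replicate 3 alone and belongs to another gene. The mt-Co1 window itself had an SD of 0.179 after Nop16 siRNA and 0.157 in controls. Whether either difference is a shift in position was not tested. Gm29216 was called higher (log2 fold change 0.08, SE 0.0257, edgeR adjusted p = 0.00516), a call lost without Nop16 siRNA replicate 3 (0.0833), and mt-Co1 itself did not pass. Gm28439 was called higher (log2 fold change 0.16, SE 0.0275, edgeR adjusted p = 9.99e-07), as was mt-Nd4. No source used here gives RNA integrity, and its part in these shares, or in the relation with span, was not tested.

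**Figure D5:**
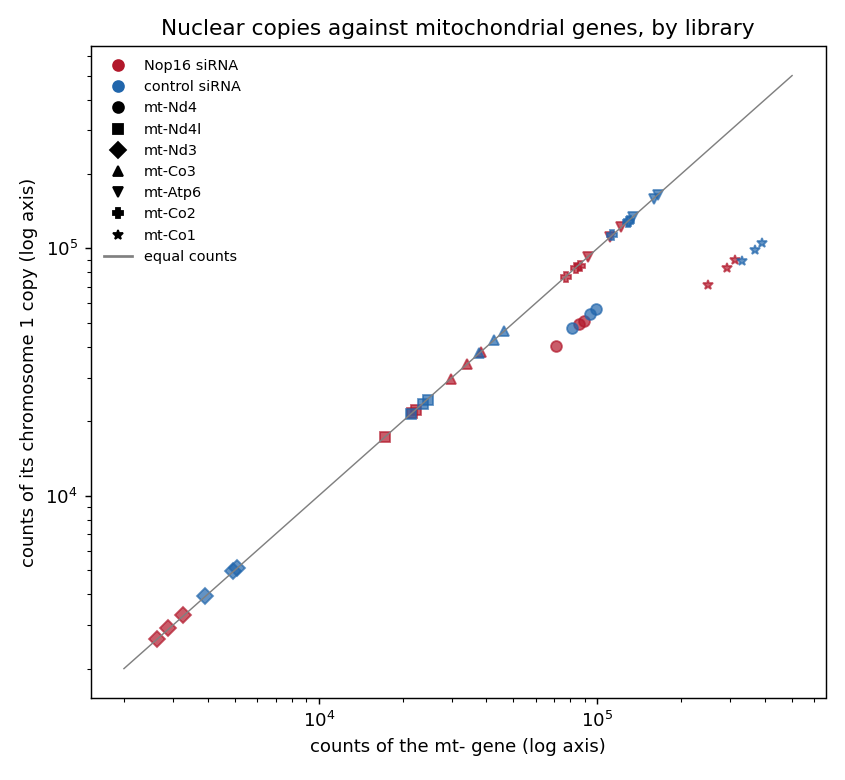
Counts of each chromosome 1 copy against counts of its mitochondrial gene, per library on log axes, with Nop16 siRNA libraries in red and control libraries in blue. Copies of mt-Nd4l, mt-Nd3, mt-Co3, mt-Atp6 and mt-Co2 lie on the line of equal counts, and the partial copies of mt-Nd4 and mt-Co1 lie below it.

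Genes of the nuclear machinery that makes and handles these RNAs changed in both directions, as did genes in general, with 23% higher and 22.4% lower over all genes tested. The lists were drawn up by function, except those of nuclear subunits and mitochondrial ribosomal proteins, which were taken by gene symbol alone. All are described by counts and medians, to be read against these shares. Of 10 tested genes for mitochondrial transcription, 1 was lower and none higher in edgeR (median log2 fold change -0.02), and none was higher at an unadjusted p below 0.05 or in DESeq2 or limma-voom. Tfam, the factor that packages mitochondrial DNA and starts its transcription, was at 23.2 ± 2.34 CPM after Nop16 siRNA and 27.6 ± 0.858 CPM in controls (SD, n = 3 each; log2 fold change -0.25, edgeR adjusted p = 0.00719), a call lost without Nop16 siRNA replicate 1 (0.102) and with libraries thinned to equal depth (0.0528). Polrmt, the mitochondrial RNA polymerase (log2 fold change 0.11, edgeR adjusted p = 0.252), and Tfb2m, its initiation factor (0.01, 0.966), did not pass. Of 20 tested genes for mitochondrial DNA replication and the nucleoid, 5 were higher and 6 lower (median -0.05). Of the 5 higher genes, 2 were still called without Nop16 siRNA replicate 1, and 3 without Nop16 siRNA replicate 2, control replicate 1 or control replicate 3. The nuclease and helicase gene Dna2 (-0.62) and the deoxyguanosine kinase gene Dguok (-0.61) fell most, and Twnk, the replicative helicase (0.29), and Rnaseh1 (0.27) rose most. Without Nop16 siRNA replicate 1, Twnk (0.212) and Rnaseh1 (0.133) did not pass, nor did Twnk without control replicate 1 (0.141) or Rnaseh1 without control replicate 2 (0.0723), as edgeR adjusted p. Twnk also did not pass in DESeq2 (adjusted p = 0.0597) or with length and GC trends removed (edgeR adjusted p = 0.0505). Polg, the replicative polymerase, did not pass (-0.08, 0.16).

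Of 20 tested genes for mitochondrial RNA processing, polyadenylation and decay, 6 were higher and 3 lower (median log2 fold change 0.07). Fastkd3, of a family of mitochondrial RNA-binding proteins (log2 fold change 0.57), and Trmt10c, a subunit of the RNase P that frees tRNA 5′ ends (0.38), rose most, and Ptcd2 (-0.36) and Grsf1, an RNA granule protein (-0.27), fell most. Lrpprc, which stabilises the mRNAs, was lower at 55.6 ± 1.58 CPM after Nop16 siRNA and 60.5 ± 1.84 CPM in controls (SD, n = 3 each; log2 fold change -0.12, edgeR adjusted p = 0.0453). This call was lost in 9 of the 18 alternative settings, among them leaving out Nop16 siRNA replicate 1 (0.0853) or 3 (0.158) or control replicate 1 (0.0995) or 2 (0.161). Its partner Slirp (0.17, edgeR adjusted p = 0.118), which passed without Nop16 siRNA replicate 2 (0.0271), and the poly(A) polymerase gene Mtpap (0.15, 0.14) did not pass. Of 23 genes for tRNA and rRNA modification, 4 were higher and none lower in edgeR (median 0.06), led by the pseudouridylation genes Rpusd3 (0.41) and Trub2 (0.39). At an unadjusted p below 0.05 edgeR had 1 lower, and DESeq2 and limma-voom had none. Leaving out Nop16 siRNA replicate 1 or control replicate 3 left 2 higher, with Rpusd3 at an edgeR adjusted p of 0.0742 and 0.0947.

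Of 13 mitochondrial translation factors, 3 were higher and 2 lower (median log2 fold change -0.00). The formyltransferase gene Mtfmt (0.38) and the ribosome recycling factor gene Gfm2 (0.37) were higher, and Oxa1l, which inserts the new subunits into the inner membrane (-0.56), and the elongation factor gene Gfm1 (-0.29) were lower. Of 79 mitochondrial ribosomal protein genes, 11 were higher and 17 lower (median 0.00), with Mrps25 (0.46) and Mrpl20 (0.29) rising most and Mrpl48 (-0.64) and Mrps28 (-0.49) falling most. Of the 11 higher genes, 4 were still called without Nop16 siRNA replicate 1 and 4 without control replicate 2, where 5 were called in all. Without Nop16 siRNA replicate 3, 7 of them were still called, and without control replicate 3, 5 were, where 7 were called in all. Of 8 tested regulators of mitochondrial biogenesis, 5 were lower and none higher (median -0.18; none higher at an unadjusted p below 0.05 in edgeR, nor in DESeq2 or limma-voom), with the coactivator gene Ppargc1b (-0.77) and the transcription factor gene Gabpa (-0.36) falling most.

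Among the nuclear partners of the mitochondrially encoded subunits, lower genes outnumbered higher ones in each of the 4 complexes, against 22.4% lower and 23% higher over all genes tested. In complex I, where mitochondrial mRNAs split 3 and 3, 4 of 37 tested nuclear subunit genes were higher and 12 lower (median log2 fold change -0.04), with Ndufs1 (0.42) and Ndufv3 (0.19) rising and Ndufb10 (-0.47) and Ndufa6 (-0.42) falling most. Leaving out control replicate 2 left 2 of them higher, and Ndufv3 then had an edgeR adjusted p of 0.0609. The list went by symbol and counts Ndufa4 (log2 fold change 0.12), a subunit of complex IV, among its higher genes. In complex III, 2 of 9 were higher and 5 lower (median -0.13), led by Uqcrh (-0.32) and Cyc1 (-0.21). Uqcr11 (0.19) and Uqcr10 (0.18) were higher, and Uqcr11 lost its call in 10 of the 18 alternative settings, DESeq2 (adjusted p = 0.0921) and limma-voom (0.0537) among them. Without Nop16 siRNA replicate 1 (0.287) and without control replicate 2 (0.119) or 3 (0.163), 1 gene was left higher.

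In complex IV, 3 of 13 tested nuclear subunit genes were higher and 6 lower (median log2 fold change -0.08). Cox6a2, a heart and muscle isoform, stood at 0.750 ± 0.154 CPM after Nop16 siRNA and 8.73 ± 0.858 CPM in controls (SD, n = 3 each; log2 fold change -3.54, edgeR adjusted p = 1.59e-21), and Cox7a2l fell by 0.61. Cox7a1 (0.80), another muscle isoform, and Cox7b (0.13) were higher. Cox7b lost its call without Nop16 siRNA replicate 2 (0.0923) and without control replicate 2 (0.0874) or 3 (0.0569), with library size only (0.0681) and with libraries thinned to equal depth (0.0768), 6 of the 18 settings with the minimum fold of 1.2 counted, and leaving out control replicate 2 left 1 gene higher. In complex V, none of 17 was higher and 6 were lower in edgeR (median -0.05), with Atp5g2 (-0.59) and Atp5h (-0.34) falling most. At an unadjusted p below 0.05 edgeR had 1 higher, and DESeq2 and limma-voom had none. mt-Atp6 and mt-Co2 were lower in complexes V and IV, where 6 of 17 and 6 of 13 tested nuclear subunit genes were lower. The complex I mRNAs mt-Nd4, mt-Nd4l and mt-Nd5 were higher, while 12 of 37 tested nuclear genes with symbols of that complex were lower. Over all genes tested 22.4% were lower. No test was made of whether mitochondrial and nuclear subunits differed.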

How the data were processed

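RNA (1 µg per sample, poly(A)-selected) was made into directional libraries, per the labels' protocols. The deposited values are raw fragment counts per gene from featureCounts 2.0.1 with Ensembl 101 models of GRCm38, per the file headers. Those headers record strand setting 2, at least 10 bases of overlap and properly paired fragments, with multi-mapped and multi-gene fragments counted each time, and they name a filter on the gene models without describing it. The submitters' processing notes name Trim Galore and HISAT2 2.2.1. Genes with near-identical copies therefore share counts, and a total is not a number of distinct fragments. The floor of 3 counts equals 0.13 to 0.192 CPM per library, which covers counting error only, since no molecular identifiers were used.

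All genes were fitted with edgeR 4.0.16 (R 4.3.3), using its quasi-likelihood test with robust dispersion, TMM factors, filterByExpr and a threshold of 0.05 on the Benjamini-Hochberg adjusted p. A log2 fold change is Nop16 siRNA minus control siRNA, and its SE is that value over the root of F. Shares and ratios were compared with the exact permutation test of SciPy 1.17.1. Nuclear copies were gene models outside the mitochondrial chromosome that BLAST 2.17.0 matched at 95% identity over at least 100 bases of a mitochondrial gene. Transcript sequences, those printed included, came from GENCODE release 21 for mouse (GRCm38). The fit and the trend removal were tested on simulated data for this comparison (14060 genes). There, 42% of genes changed 1.2-fold and 98% of those changed 1.5-fold were called. Only 50 genes were changed at each fold and 175 were called in all, against 6482 in the data. The adjusted p cut was therefore stricter in the simulation, and its rates do not carry over to the data. Within groups the chi-square statistic between libraries was 2.46 to 3.00 per degree of freedom, above sampling noise in every pair.

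Gene calls and counts of calls were recomputed with RLE factors, with library size only, with mitochondrial genes and copies left out of scaling, in DESeq2 1.42.0 and limma-voom (limma 3.58.1), without a filter, at 5 CPM in 3 libraries, without robust dispersion, with a replicate block, against a fold of 1.2, with length and GC trends removed, on thinned libraries and without each library. The share of counts and the ratios between RNA classes were recomputed without each library and with other sets of genes. Leaving the nuclear copies out of the total, and leaving out each library for shares of mRNA counts, copy windows and the relation with span, were added after the data were seen. Named genes are Nop16, the 13 mRNAs and 2 rRNAs, the 4 most abundant tRNA genes and called ones, the 4 most abundant nuclear copies, up to 2 changed members of each list in each direction, and 7 nuclear genes whatever their values. Ndufa4 and the other tRNA genes, copies and markers named were chosen after their values were seen. A further marker, beside those named, is not reported here. The members and the lists were chosen with earlier results of these data known.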

Additional observations from a re-analysis of the deposited data

How the results depend on the processing

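Counts of changed genes kept within 1.5 times under the 18 settings tried, except under a minimum fold of 1.2 and with length and GC trends removed. Under the minimum fold 2361 of all genes passed, 1108 higher and 1253 lower, with 3 mitochondrially encoded genes, 0 higher and 3 lower, of which 1 was an mRNA. With trends removed 6 mitochondrially encoded genes were higher, all 6 of them mRNAs, and 3 mRNAs were lower. Leaving out 1 library gave 12 to 14 changed mitochondrially encoded genes, and DESeq2 and each of the 3 other scalings gave 12, with 3 higher and 9 lower. The largest shift of the median log2 fold change of all genes under another scaling was -0.02.

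Without 1 library, the difference in the share of counts ran from -0.293 to -0.168 percentage points, that of the rRNA to mRNA ratio from -0.39 to -0.34, that of the light to heavy strand ratio from -0.47 to -0.36, and that of the tRNA to mRNA ratio from -0.11 to 0.00196. The last changed sign without Nop16 siRNA replicate 1. Of 390 values of single mitochondrially encoded genes, 356 kept direction and call, 12 lost the call, 10 gained one and 15 changed sign, 3 of which are also among the lost or gained calls, and the cause was not tested. Differences in the shares of mRNA counts and in both copy windows kept their sign without each library, and the rank correlation with span ran from 0.764 to 0.836.

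The sign changes with trends removed were those of mt-Nd2 (0.125), mt-Co1 (0.0552), mt-Atp8 (0.0682), mt-Atp6 (0.0169), mt-Te (0.0622), Gm10925 (0.0205) and Tfb2m (-0.0244). Otherwise the sign turned in values without a call. mt-Te was at 0.0301 in limma-voom, 0.002 with the replicate block and 0.0228 with libraries thinned, and Tfb2m was at -0.0171 with library size only and -0.0011 with no filter. Without 1 library, log2 fold changes ran from -0.0468 to 0.0032 for mt-Nd2, -0.0212 to 0.0144 for mt-Co1, -0.0026 to 0.0569 for mt-Co3, -0.0029 to 0.0573 for Gm28437, -0.459 to 0.0733 for mt-Ts1, -0.181 to 0.146 for mt-Te and -0.0565 to 0.0585 for Tfb2m.

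Libraries share replicate numbers across groups, but their deviations from the group means correlated at 0.017, -0.02 and -0.022 for the same number, so the numbers do not pair them. With the replicate block 6429 genes changed, 12 of them mitochondrially encoded. tRNA genes at under 5 CPM are limited by counting error.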
